A study of Homo sapiens with 20 samples.

Results

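KO1 is a single clone of H1 cells labelled as a knockout of DIGIT, followed here from undifferentiated culture into endoderm differentiation. H1 is an established human embryonic stem cell line, and DIGIT is a long noncoding RNA gene that lies beside the homeobox gene GSC. The 4 libraries were chosen by their labels and make 4 of the 20 samples of the series. They are 2 libraries at day 0, from DIGIT knockout cells kept in mTeSR1 medium without added Activin A, and 2 libraries at day 4, from the same clone after 4 days in RPMI with B27 and Activin A at 50 ng/ml. The clone was compared with unedited H1 cells (WT) and with a second DIGIT knockout clone (KO2), each with 2 libraries at both days under the same conditions. The change of medium goes with the change of day, so the part of each cannot be told apart. No feature carries the name DIGIT, its level was not analysed here, and the knockout is taken from the labels.

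Activin A binds the same type of receptor as Nodal, and the receptors activate SMAD2 and SMAD3, which enter the nucleus with SMAD4 and partners such as FOXH1. In pluripotent cells a strong and lasting signal of this kind first turns on primitive streak genes (T, MIXL1, EOMES, GSC) and then definitive endoderm genes (SOX17, FOXA2, GATA4, GATA6, CXCR4), while antagonists such as LEFTY1, LEFTY2 and CER1 feed back on the ligands. Cells also set their own sterol supply: when sterol in the endoplasmic reticulum is low, SREBP2 is freed from INSIG1 and raises the genes of cholesterol synthesis and uptake.

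The values are read counts per gene, shown as CPM, a level per library size that allows libraries to be compared. The KO1 libraries held 17859275 and 21394547 counts at day 0 and 12374436 and 15351844 at day 4, within a range of 9942016 to 21394547 over the 12 RNA-seq libraries. A count of 3, the floor used below, equals 0.134 to 0.259 CPM in a KO1 library. Changes are given on the log2 scale, day 4 minus day 0, with the standard error (SE) and the adjusted p of edgeR's quasi-likelihood test after Benjamini-Hochberg correction over 16792 features. A change was called where that p was under 0.05. Nothing in the labels says that the 2 libraries of a group come from separate cultures, so the p values measure only a spread between libraries. That spread was estimated over all 12 RNA-seq libraries, not from the KO1 libraries alone.

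The 2 day 0 libraries of KO1, called library 1 and library 2 after their replicate numbers, differed from each other more than any other pair. Of 10547 features with at least 10 CPM, 598 (5.67%) differed by more than 1.5-fold between them, 293 higher and 305 lower in library 2. The same count was 16 in the KO1 day 4 pair and 20 to 33 in the pairs of WT and KO2. Past 2-fold there were 54 features in the KO1 day 0 pair and 1 to 10 in the others. After every library was thinned to 9942016 counts, the number past 1.5-fold was 652 in the KO1 day 0 pair and 27 to 43 in the others. Library 2 was the one that stood apart. It lay more than 1.5-fold outside the range of the other 5 day 0 libraries in 78 features above and 73 below, whereas library 1 did so in 0 features and the 4 libraries of WT and KO2 in 0 to 4 above and 1 or 2 below. Where leaving out library 1 or library 2 ended a call or moved a named value or a list count by more than 1.5 times, the value without it is also given. A group left with 1 library adds nothing to the estimate of the spread. Counts and p values of such a fit therefore take no account of the difference within that pair.

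**Figure D1:**
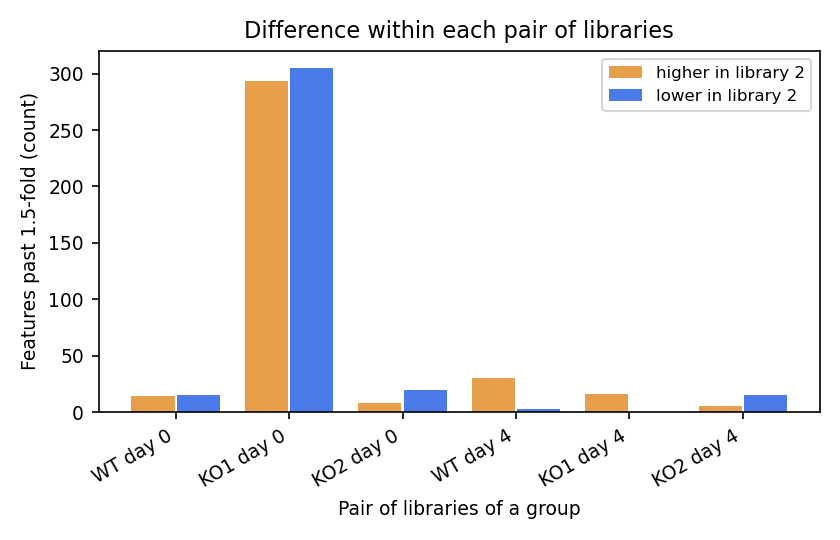
Number of features (vertical axis) that differed by more than 1.5-fold within each of the 6 pairs of replicate libraries, among 10547 features of at least 10 CPM, split by whether library 2 was higher or lower. The KO1 day 0 pair holds 293 higher and 305 lower features, and each of the other 5 pairs holds 33 or fewer in all.

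The 20 genes of at least 10 CPM that differed most between the day 0 libraries, 10 each way, had varied roles. TXNIP, a brake on glucose uptake, was at 9.61 CPM in library 1 and 50.3 CPM in library 2. DDIT4, an inhibitor of mTORC1 signalling, was at 68.5 and 246 CPM, and DDIT3, a transcription factor of the stress response, at 3.24 and 14.0 CPM. In each of these 3 genes library 2 was above all 5 other day 0 libraries, while library 1 lay within the range of WT and KO2 or, for DDIT3, just below it. STC1, a secreted glycoprotein, was at 53.8 and 159 CPM, and SULF1, which removes sulfate from heparan sulfate chains, at 24.5 and 71.1 CPM. AHNAK, INHBE, FILIP1, GPR160 and SERPINB9 complete the 10 named genes that were higher in library 2. Among the 10 that were lower, ARC, an activity-regulated gene, was at 25.1 CPM in library 1 and 8.72 CPM in library 2. HMOX1, the heme oxygenase induced by oxidative stress, was at 48.8 and 18.9 CPM, and ODC1, the first enzyme of polyamine synthesis, at 165 and 67.9 CPM. TAGLN, an actin-binding protein, was at 180 and 71.8 CPM. The other 6 were ENC1, HAS3, SPIB, GCNT4, GPRIN1 and DUSP5P1.

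**Figure D2:**
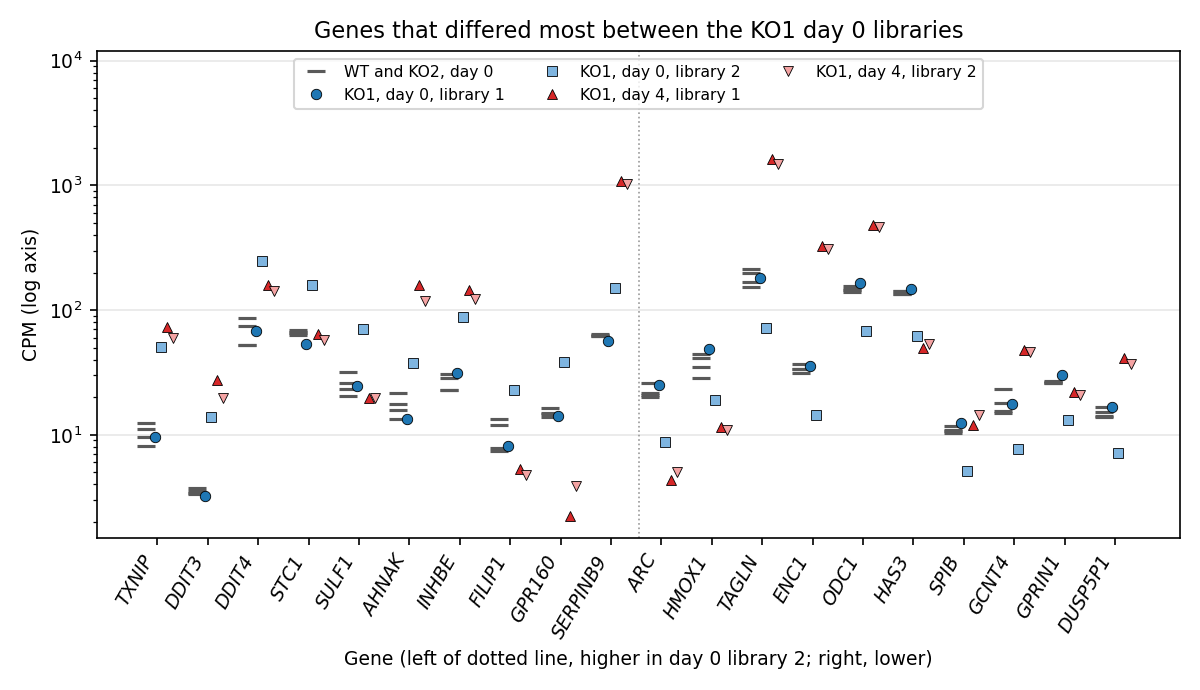
Level in CPM (log axis) of the 20 genes that differed most between the KO1 day 0 libraries, in those 2 libraries (blue), the 4 day 0 libraries of WT and KO2 (grey bars) and the 2 KO1 day 4 libraries (red). Library 1 lies beside the grey bars in genes such as TXNIP (9.61 CPM), where library 2 (50.3 CPM) lies apart.

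Some of these genes lay in library 2 on the side of day 4 and others on the far side. TXNIP reached 73.4 and 59.2 CPM at day 4, a log2 difference of 2.76 from library 1 and of 0.39 from library 2. DDIT4 stood at 159 and 141.5 CPM, above library 1 and below library 2, and its change over the mean of both was −0.07 (SE 0.34, adjusted p 0.873). SERPINB9, an inhibitor of granzyme B, went to 1076 and 1034 CPM from 56.3 and 150 CPM, and ODC1 to 478 and 465 CPM. TAGLN went to 1617 and 1472 CPM. SERPINB9 was nearer to day 4 in library 2, and ODC1 and TAGLN were nearer in library 1. Over the 293 features higher in library 2, 29.7% rose and 26.6% fell in WT between the days, over the 305 lower ones 29.5% rose and 18% fell, and over all 10547 these shares were 28.2% and 25.2%. Across the 10547 features, the difference between the libraries had a Pearson correlation of 0.024 with the change of WT cells and of −0.084 with that of KO2, given as descriptions across genes, which are not independent.

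Lists of genes differed within the pair as well. All 12 measured heat shock genes were lower in library 2, with a median log2 difference of −0.52 against 0.004 over all 16792 features. Among them HSPA8, the constitutive chaperone, was at 1976 and 1053 CPM, and HSPH1, its exchange factor, at 263 and 165 CPM. Of 11 replication histone genes 9 were lower in library 2 (median −0.64), and of 29 cell cycle genes 20 were lower (median −0.16). Over all features 50.5% were higher and 49.4% lower in library 2. With 1 library on each side these differences carry no test, and their part in the changes below was not tested other than by leaving out each library.

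Between day 0 and day 4 9809 of the 16792 features (58.4%) changed in the clone, 4886 (29.1%) higher and 4923 (29.3%) lower at day 4. Of the called features, 1537 (9.15%) rose and 2254 (13.4%) fell by at least 1 on the log2 scale. The 2 day 4 libraries lay wholly above the 2 day 0 libraries in 4880 of the risers and wholly below in 4899 of the fallers. Over all features tested these shares of non-overlap were 38.4% above and 37.7% below, with a median change of 0.002. Among the called features, 3 had a change of opposite sign against library 1 and library 2. A feature whose day 0 libraries lie on either side of day 4 can hardly be called, as DDIT4 was not. The count of 3 therefore cannot show how many directions differed between the day 0 libraries. Of the 3791 features called at 1 or more, 532 stayed under 1 against library 1, and 308 against library 2. The number called was 5452 higher and 5275 lower without library 1 and 4959 and 4917 without library 2.

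The clone's 4 named markers were higher at day 4. CER1, which binds and blocks Nodal and BMP ligands outside the cell, was at 1.21 and 1.38 CPM at day 0 and at 4536 and 4445 CPM at day 4. MIXL1, a homeobox factor of the streak, went from 0.494 and 0.712 CPM to 144 and 147 CPM. T (brachyury), the T-box factor of the streak, went from 0.439 and 0.356 CPM to 28.9 and 26.6 CPM. The day 4 libraries lay far above both day 0 libraries in all 3, and the log2 changes were 11.74 (SE 0.29, adjusted p 1.31e-13) for CER1, 7.87 (SE 0.20, adjusted p 2.13e-13) for MIXL1 and 6.11 (SE 0.24, adjusted p 2.41e-11) for T. HMGCS1, which makes HMG-CoA for sterol synthesis, had already been high at day 0, at 759 and 990 CPM, and rose to 2830 and 2720 CPM, a log2 change of 1.67 (SE 0.12, adjusted p 1.17e-08). In bulk RNA, fewer cells of a type and less RNA per cell cannot be told apart.

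Genes of the primitive streak rose with them. Of 24 listed genes 20 were measured, 16 rose, 1 fell, and the median change was 5.94. EOMES, the T-box factor upstream of endoderm, went from 0.714 and 0.4004 CPM to 508 and 492 CPM (9.83, SE 0.23, adjusted p 9.63e-14). GSC, the homeobox gene beside DIGIT, was at 0.330 CPM in day 0 library 1 and at 1.56 CPM in library 2, and at 36.7 and 37.6 CPM at day 4. Its day 4 libraries lay close together while its day 0 libraries did not. The change of GSC was 5.20 (SE 0.28, adjusted p 6.57e-10), with 4.57 without library 1 and 6.78 without library 2. LHX1, an organizer homeobox gene, rose from 0.879 and 1.20 CPM to 153 and 170 CPM, and EVX1, a homeobox gene of the posterior streak, from 1 count over both day 0 libraries to 64 over both day 4 libraries, which is 99.7 times higher per unit of depth (95% interval for counting error 17.3 to 4000). TBX6, a factor of paraxial mesoderm, was the listed gene that fell, from 2.69 and 4.85 CPM to 2.07 and 2.27 CPM (−0.81, SE 0.28, adjusted p 0.022). Without library 2 no listed gene was called lower, and without library 1 the list counted 17 higher and 2 lower.

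Definitive endoderm genes formed the second group. Of 45 listed 43 were measured, 34 rose and 4 fell (ELMOD1, S100A16, STC1 and SHISA2), and 5 did not pass the test (FRZB, HNF4A, FOXA3, RIPPLY1 and PDZK1). The median change was 2.79. SOX17, an HMG-box factor of endoderm, rose from 0.934 and 0.712 CPM to 102.5 and 110 CPM (7.02, SE 0.20, adjusted p 8.95e-13). GATA6, a zinc finger factor, rose from 0.165 and 0.134 CPM to 175.5 and 174 CPM (10.13, SE 0.23, adjusted p 9.42e-14), and its relative GATA4 from 0.2197 and 0.134 CPM to 32.6 and 29.6 CPM. FOXA2, a forkhead factor that opens chromatin, rose from 1.65 and 2.09 CPM to 48.8 and 54.1 CPM (4.76, SE 0.18, adjusted p 1.53e-11). In these 4 genes both day 0 libraries were low and close to each other. HHEX, a homeobox factor of anterior endoderm, was at 1.04 and 3.03 CPM at day 0 and at 27.6 and 31.5 CPM at day 4, and its change was 3.80 (SE 0.25, adjusted p 5.3e-09), 3.29 without library 1 and 4.82 without library 2. CXCR4, the chemokine receptor used to sort endoderm, rose from 1.26 and 1.60 CPM to 53.2 and 58.1 CPM (5.26, SE 0.19, adjusted p 1.07e-11).

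**Figure D3:**
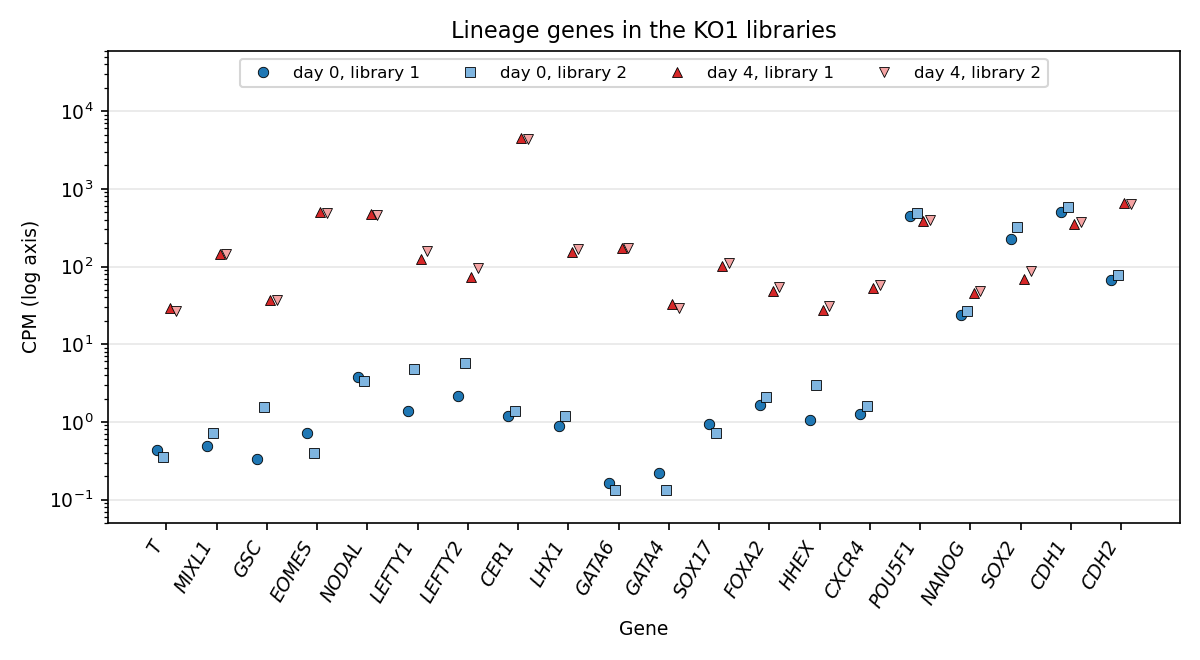
Level in CPM (log axis) of 20 lineage genes in the 4 KO1 libraries, with day 0 in blue and day 4 in red. The day 4 libraries lie above day 0 for the streak and endoderm genes such as CER1 (4536 and 4445 CPM), and below it for SOX2 (69.1 and 86.6 CPM against 226 and 324.5 CPM).

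STC1 was the 1 named gene of the change over days whose direction turned with a single library. It was at 53.8 and 159 CPM at day 0 and 64.2 and 57.6 CPM at day 4, so both day 4 libraries lay above library 1 and below library 2. Its change was −0.81 (SE 0.30, adjusted p 0.0297) over both libraries and 0.18 (adjusted p 0.113) without library 2. The call was also lost without either day 4 library, at adjusted p 0.0792 and 0.142, and with DESeq2 at 0.121.

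The largest rises outside the lineage list included both signalling and surface genes. CD48, a membrane protein best known from blood cells, had 0 counts in both day 0 libraries and 49.0 and 53.9 CPM at day 4, at least 701-fold higher against the floor of 3 counts over the group. FGF17, a ligand of the FGF8 subfamily, rose from 0.2197 and 0.134 CPM to 335 and 347 CPM (10.88, SE 0.25, adjusted p 9.42e-14). LINC00261, a long noncoding RNA beside FOXA2, had 1 count at day 0 and 599 at day 4, or 933 times higher by depth (95% interval for counting error 167 to 36900). The trypsinogen genes PRSS1 and PRSS3 were 1110 times (198 to 43700) and 730 times (130 to 28900) higher on that measure, and as close paralogs they may share reads. NPPB, the precursor of a natriuretic peptide, was 311 times higher (85.4 to 2570). Both day 0 libraries of these genes were near the floor and both day 4 libraries far above it, and the wide intervals leave the size imprecise.

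Among signalling genes the Nodal and Activin list gave 15 risers and 2 fallers of 25 measured (29 listed), with a median of 0.43. The ligand NODAL rose from 3.79 and 3.34 CPM to 468 and 455 CPM (7.02, SE 0.15, adjusted p 9.42e-14). GDF3, another ligand of the family, rose by 2.93 (SE 0.11, adjusted p 1.05e-11). The antagonist LEFTY1 was at 1.37 and 4.85 CPM at day 0 and at 125 and 160 CPM at day 4, and LEFTY2 at 2.14 and 5.65 CPM and then at 73.5 and 94.4 CPM. In both genes day 0 library 2 was the higher one, and both day 4 libraries lay far above it. The change of LEFTY1 was 5.45 (SE 0.26, adjusted p 2.16e-10), 4.88 without library 1 and 6.69 without library 2, and that of LEFTY2 was 4.38 (SE 0.24, adjusted p 9.22e-10), 3.90 and 5.29. Downstream targets rose as well, among them the feedback inhibitors PMEPA1 (2.74), SMAD7 (1.78) and BAMBI (1.89), and the Activin-binding protein FST (1.88). The receptors and transducers moved less: SMAD2 rose by 0.43 and SMAD3 by 0.74, and SMAD4 had a change of −0.10 (adjusted p 0.305). TGIF2, a corepressor of SMADs, fell by 0.78, and DRAP1, which restrains Nodal signalling through FOXH1, fell by 0.61. Without library 1 the list counted 15 higher and 5 lower.

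The BMP, WNT and FGF lists held both risers and fallers, beside shares of 29.1% higher and 29.3% lower over all features. Of 22 BMP genes measured 16 rose and 2 fell (median 1.15), with the ligand BMP2 up from 4.01 and 4.98 CPM to 85.4 and 75.0 CPM (4.14, SE 0.17, adjusted p 4.82e-11) and the antagonist GREM1 up from 1.59 and 0.934 CPM to 85.7 and 75.2 CPM (6.02, SE 0.20, adjusted p 4.03e-12). The ligand BMP6 (−2.75) and the target ID3 (−0.90) were the fallers, and the count of fallers was 4 without library 1. Of 29 WNT genes 16 rose and 5 fell (median 0.93), while the summed level of the list was at 3868 and 3576 CPM at day 0 and at 2954 and 2972 CPM at day 4. The ligands WNT3 (5.48) and WNT3A (4.95), the target SP5 (6.41) and the secreted antagonists DKK1 (7.11) and DKK4 (8.87) rose, and DKK4 reached 118 and 142 CPM from 0.2197 and 0.311 CPM. SFRP1, a secreted WNT antagonist, went the other way, from 1386 and 1396 CPM to 217 and 253 CPM (−2.56, SE 0.09, adjusted p 6.76e-12), and SFRP2 fell by 1.61. The count of WNT fallers depended on single libraries, with 8 without day 0 library 2 and 3 without day 4 library 2, and it was 8 with upper-quartile scaling. Of 24 FGF genes 11 rose and 8 fell (median 0.34), and the fallers lay near the share over all features. The ligands FGF17, FGF8 (6.28) and FGF4 (5.77) rose, while the receptors FGFR1 (−1.32), FGFR2 (−1.51), FGFR3 (−0.40) and FGFR4 (−1.29) fell.

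The stem cell genes did not leave together. Of 35 pluripotency genes 32 were measured, 18 fell, 6 rose and 8 did not pass the test, with a median of −0.57. SOX2 fell from 226 and 324.5 CPM to 69.1 and 86.6 CPM (−1.82, SE 0.15, adjusted p 5.57e-08), so the day 4 libraries lay below both day 0 libraries. POU5F1, the core factor OCT4, was at 449 and 482 CPM at day 0 and at 385 and 398 CPM at day 4, a change of −0.25 (SE 0.07, adjusted p 0.0094) that did not pass without day 4 library 1 (adjusted p 0.0769). NANOG was higher at day 4, at 46.3 and 48.4 CPM against 24.1 and 26.9 CPM (0.89, SE 0.10, adjusted p 1.29e-06). GAL, a neuropeptide gene, rose from 68.0 and 70.1 CPM to 907.5 and 901 CPM (3.71, SE 0.08, adjusted p 9.42e-14). IDO1, which breaks down tryptophan, fell most on the list, from 112 and 102 CPM to 0.863 and 1.17 CPM (−6.68, SE 0.15, adjusted p 9.42e-14). TERT (−2.20), the catalytic subunit of telomerase, TERF1 (−1.88), which binds telomeric repeats, USP44 (−1.73), a deubiquitinase, and DNMT3B (−1.02), a DNA methyltransferase, fell too. DPPA5 had 40 counts at day 0 and 0 at day 4, at least 8.56-fold lower. ZFP42, TDGF1, SALL4 and ZIC2 were among the 8 that did not pass.

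Among called genes of at least 5 CPM at day 0 whose libraries did not overlap, the steepest falls included genes with few reads left at day 4. DAZL, a germ cell RNA-binding protein, had 250 counts at day 0 and 1 at day 4, 161 times fewer by depth (95% interval for counting error 28.6 to 6370). BTBD17 (97.0, 26.6 to 804), HES3 (82.4, 28.0 to 401), FAM65C (70.0, 19.1 to 582) and CTCFL (57.6, 19.5 to 281) followed on the same measure. NPTX1, a neuronal pentraxin, was at 43.6 CPM in day 0 library 1 and 114 CPM in library 2 and at 1.04 and 0.963 CPM at day 4 (−6.30, SE 0.45, adjusted p 1.56e-08), and its change was −5.44 without library 2. HTR1D (−5.99), a serotonin receptor, PAPLN (−5.56), LDHD (−5.37), MEDAG (−5.25) and GDPD2 (−5.14) make up the 12 named fallers with IDO1. In none of the 12 did the day 0 and day 4 libraries overlap, which was a condition of the choice.

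Cell shape and adhesion genes shifted in the same period. Of 33 genes 22 rose and 6 fell (median 0.71). CDH2, N-cadherin, rose from 67.0 and 77.7 CPM to 659 and 633 CPM (3.16, SE 0.09, adjusted p 6.13e-13), and CDH1, E-cadherin, fell from 503 and 586 CPM to 351 and 370 CPM (−0.59, SE 0.08, adjusted p 9.61e-06). VIM, an intermediate filament protein, rose by 2.69 (SE 0.14, adjusted p 3.51e-10), and the integrin ITGA5 by 2.58. The claudins CLDN4 (−1.97) and CLDN3 (−1.77), which seal tight junctions, fell.

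The lists of other cell types gave no common direction. Neuroectoderm markers counted 5 higher and 8 lower of 23 measured, mesoderm markers 11 and 4 of 18, trophoblast and amnion markers 5 and 5 of 12, fibroblast and stromal markers 6 and 3 of 12, blood and endothelial markers 5 and 3 of 9, and later endoderm and hepatic markers 4 and 2 of 10. Over all features 29.1% were higher and 29.3% lower. Neuroectoderm counts lay near these shares, and the share of risers was highest for mesoderm. Without day 4 library 2 the fallers were 2 for mesoderm, 3 for trophoblast and 1 for blood and endothelium, and the latter were also 1 without day 0 library 1. In summed CPM the neuroectoderm list was at 990 and 946 at day 0 and at 1743 and 1688 at day 4, and the fibroblast list at 1687 and 1347 and then at 3989 and 3677. The mesoderm list ran from 271.5 to 412 at day 0 and from 270.4 to 292 at day 4, the trophoblast list from 432 to 459 and from 435 to 445.5, and the blood and endothelial list from 247 to 373 and from 234 to 237. Within them APLNR, the apelin receptor of early mesoderm, rose from 0.549 and 0.445 CPM to 39.0 and 31.5 CPM (6.13, SE 0.24, adjusted p 2.31e-11), while KDR, a VEGF receptor, fell from 217 and 352 CPM to 139 and 131 CPM (−1.08, adjusted p 2.22e-05, and −0.68 without library 2). Other members rose, among them the neuroectoderm genes NES (1.80, adjusted p 2.16e-10) and LHX5 (3.98, adjusted p 1.08e-08) and the mesoderm gene FOXC1 (4.22, adjusted p 3.59e-09). Of the members too low to test, PAX6 was at 9 or fewer counts in each KO1 library, NEUROG1 at 0 in all 4, PECAM1 and CGA at 1 or 0 and DCN at 3 or fewer, while RAX reached 18 counts and PTPRC 14. AFP, a fetal plasma protein of yolk sac and liver, was at 3.30 and 0.756 CPM and then at 12.1 and 10.9 CPM (2.56, SE 0.42, adjusted p 8.53e-05, 3.91 without library 1 and 1.80 without library 2), and TTR had 0 counts in all 4 libraries. TAGLN, on the fibroblast list, rose by 3.62 (adjusted p 2.59e-08). The part of other cell types in the results was not tested.

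Cholesterol genes were induced in KO1 over the 4 days, where most of them fell in WT and KO2. All 25 listed genes of cholesterol synthesis and uptake were measured, 22 rose, 1 fell and 2 did not pass, with a median of 0.92. SQLE, the squalene epoxidase, went from 316 and 388 CPM to 558 and 534 CPM (0.63, SE 0.11, adjusted p 0.000185). IDI1, the isomerase of the isoprenoid route, went from 133 and 170 CPM to 413 and 377 CPM, a change of 1.38. INSIG1, which retains SREBP in the endoplasmic reticulum, went from 119 and 170 CPM to 281 and 240 CPM (0.85, SE 0.15, adjusted p 0.000195). Both day 4 libraries lay above both day 0 libraries in these 3 genes, and day 0 library 2 was the nearer one in each. ACAT2, the first enzyme of the route, rose by 1.69 (SE 0.08, adjusted p 1.33e-10), MVK, the mevalonate kinase, by 1.27 and MVD by 1.46. PMVK, a mevalonate pathway kinase, fell by 0.96, and SREBF2, which encodes SREBP2, had a change of 0.06 (adjusted p 0.539), as had SC5DL one of 0.12 (adjusted p 0.506). The count held without either day 0 library, with 22 risers and a median of 0.81 without library 1 and 23 and 1.02 without library 2, and it was 22 or 23 under every alternative run.

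To show the promoters of such a coordinated set, 18 of the 25 genes were matched to RefSeq promoters of the build GRCh38.p14 (SC5DL as SC5D). The other 7 were not matched. The 3 sequences are the 250 bases before a gene start of HMGCS1, INSIG1 and IDI1. They are written 5′ to 3′ along the gene's strand, with CACNCCAC, the core of a sterol regulatory element, and CCAAT, the NF-Y box, in capitals on either strand. HMGCS1 is among the named markers, and the change of INSIG1 stood farthest from that of WT cells on this list. For IDI1 the promoter that holds both motifs was picked. INSIG1 and a promoter of SC5D hold both too. The printed promoter of HMGCS1 holds CCAAT but no CACNCCAC. The promoters of HMGCS1 and IDI1 that are not printed hold no CACNCCAC either.
HMGCS1, chr5:43313413-43313662, minus strand: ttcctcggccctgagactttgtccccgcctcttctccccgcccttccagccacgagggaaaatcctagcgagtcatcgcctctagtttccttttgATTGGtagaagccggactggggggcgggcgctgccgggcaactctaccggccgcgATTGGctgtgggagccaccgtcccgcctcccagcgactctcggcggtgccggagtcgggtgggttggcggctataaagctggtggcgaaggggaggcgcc
INSIG1, chr7:155297628-155297877, plus strand: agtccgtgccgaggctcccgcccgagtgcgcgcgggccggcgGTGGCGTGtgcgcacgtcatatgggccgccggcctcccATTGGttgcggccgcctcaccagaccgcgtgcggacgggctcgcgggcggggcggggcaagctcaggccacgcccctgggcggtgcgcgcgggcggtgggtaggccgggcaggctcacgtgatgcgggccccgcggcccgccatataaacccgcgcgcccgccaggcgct
IDI1, chr10:1048887-1049136, minus strand: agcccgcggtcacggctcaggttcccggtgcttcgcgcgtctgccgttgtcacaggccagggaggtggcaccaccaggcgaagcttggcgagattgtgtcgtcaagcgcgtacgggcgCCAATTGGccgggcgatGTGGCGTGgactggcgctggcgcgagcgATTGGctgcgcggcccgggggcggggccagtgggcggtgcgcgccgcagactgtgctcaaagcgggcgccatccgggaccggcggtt
CCAAT stood in a promoter of 16 of the 18 genes, of 37% of all genes in the table, and in 32% of all 35116 RefSeq promoters over the same 250 bases. CACNCCAC stood in 4 of the 18 (IDI1, SC5D, INSIG1 and SREBF2), in 5.89% of all genes and 4.87% of all promoters, and the shorter CACNCCA, which the former contains, in 9, in 17.4% and in 14.7%. The longer forms TCACNCCAC and CACCCCAC were each found in 1, SREBF2, against 1.09% and 2.97% of all genes and 0.883% and 2.43% of all promoters. Both strands were searched, several genes have more than 1 promoter in the table, the motifs were chosen after the data were seen, and a match is a description of letters.

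Related lipid genes moved with the sterol genes. Of 13 fatty acid synthesis genes measured 10 rose and 1 fell (median 0.56). ACSS2, which makes acetyl-CoA from acetate, was at 65.0 and 114.5 CPM at day 0 and at 208 and 194 CPM at day 4 (1.16, SE 0.17, adjusted p 3.62e-05). SCD, a desaturase, rose by 0.78, FASN, the fatty acid synthase, by 0.56, ACLY, which makes cytosolic acetyl-CoA, by 0.92 and ME1, the malic enzyme that supplies NADPH, by 1.72. SREBF1 was the faller, at −0.23 (adjusted p 0.0442), and that call was lost in most alternatives, among them the fits without day 0 library 1 (adjusted p 0.213) and without day 4 library 1 (0.215) or 2 (0.0854). Genes of sterol efflux went the other way, with 6 lower and 2 higher of 9 (median −0.77). They leaned lower in the other lines too, with 5 lower and 1 higher in WT (median −0.33) and 6 and 1 in KO2 (median −0.63). Against WT 1 of the 9 had a higher and 3 a lower change in KO1, and against KO2 2 and 2. ABCA1, the cholesterol exporter, fell from 16.4 and 11.8 CPM to 1.73 and 1.58 CPM (−3.09, SE 0.26, adjusted p 8.11e-08), ABCG1 by 3.68 and MYLIP, a ubiquitin ligase, by 2.12. NPC1 (1.02), which exports cholesterol from lysosomes, and SOAT1 (1.79), which esterifies it, rose.

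**Figure D4:**
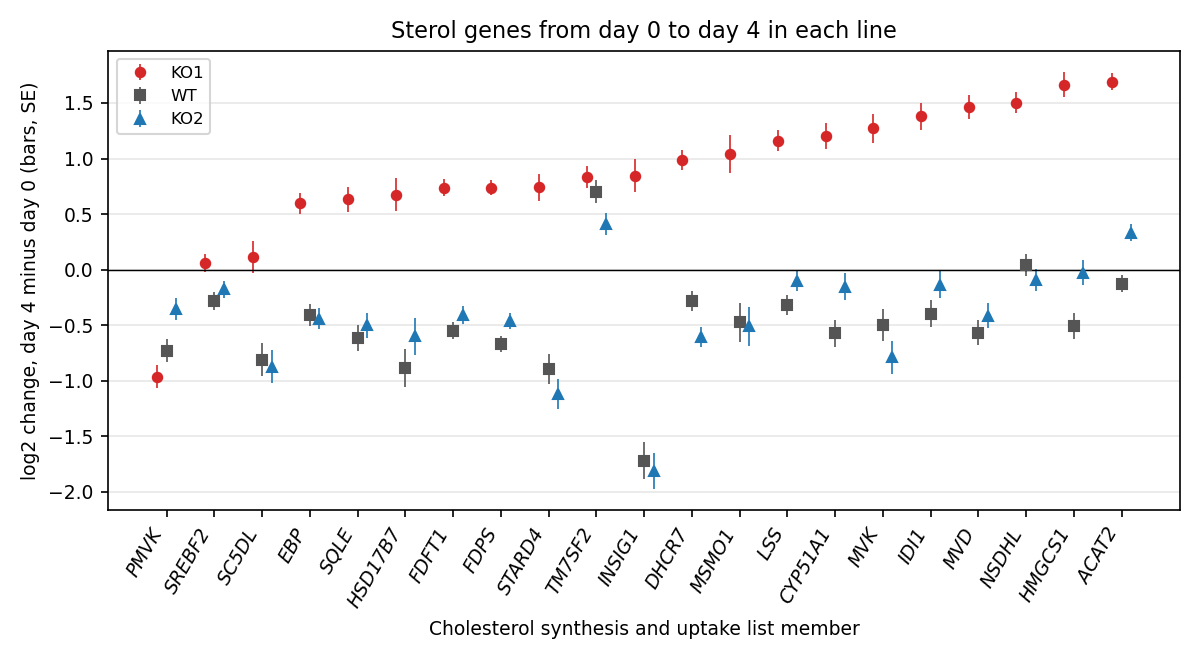
Change from day 0 to day 4 (log2, vertical axis) of 21 genes of the cholesterol synthesis and uptake list in KO1, WT and KO2, with bars of 1 SE. The KO1 points lie above 0 for 20 of the 21 genes, and for HMGCS1 lie at 1.67 against −0.51 in WT and −0.03 in KO2.

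Stress and growth genes also rose over the period. Over all features 29.1% were higher and 29.3% lower. Of 23 measured genes of the integrated stress response 21 rose and 0 fell (median 0.80). On this list 15 rose and 1 fell in WT, and 17 rose and 2 fell in KO2. TRIB3, a pseudokinase induced by ATF4, rose from 21.8 and 28.6 CPM to 120 and 93.3 CPM (2.08, SE 0.15, adjusted p 2.04e-08), SLC7A5, an amino acid transporter, by 1.75 and ASNS, the asparagine synthetase, by 0.99. Of 12 heat shock genes 7 rose and 1 fell, against 2 and 2 in WT and 9 and 1 in KO2. The KO1 count rested on the day 0 libraries: HSPA8 reached 2168 and 2256 CPM, above the 1976 CPM of library 1 and far above the 1053 CPM of library 2. The heat shock median was 0.49 over both libraries, 0.80 with 8 risers without library 1 and 0.16 with 5 risers without library 2, and there were 4 risers without day 4 library 2. Of 19 immediate early genes 13 rose and 2 fell, against 13 and 1 in WT and 15 and 1 in KO2. In KO1 IER3 was at 12.3 and 11.7 CPM and then at 206 and 209 CPM (4.11). NR4A1 was 1 of the fallers (−0.56, adjusted p 0.0133), with an adjusted p of 0.183 without day 0 library 2 and of 0.11 without day 4 library 1.

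The counts in this paragraph stand beside shares of 29.1% higher and 29.3% lower over all features. Cell cycle genes counted 19 higher and 4 lower of 29 (median 0.47), with RRM2, a subunit of ribonucleotide reductase, up by 1.25 and the licensing factor CDT1 down by 0.85. There were 2 cell cycle fallers without day 4 library 1. Of 11 measured replication histone genes 8 rose and 0 fell, with HIST1H2BK at 5.16 and 2.63 CPM and then at 51.9 and 43.2 CPM (3.63, SE 0.21, adjusted p 1.46e-09). The histone median was 1.39, 1.63 without library 1 and 0.97 without library 2. Histone genes share sequence, and how shared reads were counted is not given in the sources used here. Respiratory chain genes leaned lower, with 13 fallers and 1 riser of 20 (median −0.31), led by COX7C, a cytochrome oxidase subunit, from 253 and 243 CPM to 124 and 121 CPM. The riser NDUFB3 (0.36, adjusted p 0.0122) was not called without day 4 library 1 or 2 (adjusted p 0.0559 and 0.0567). Glycolysis and hypoxia genes counted 7 higher and 10 lower of 29, p53 targets 7 and 4 of 18 (4 and 4 without day 4 library 1), and ribosomal protein genes 1 and 5 of 20 (0 and 3 without day 4 library 1). The ribosomal riser RPS3 (0.17, adjusted p 0.0497) was not called without day 0 library 1 (0.0822), without either day 4 library (0.198 and 0.104) or with upper-quartile scaling (0.301).

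The change of the clone was then tested against that of WT cells, which have their own day 0 libraries. In this test of the difference 838 features (4.99%) had a higher change in KO1 and 807 (4.81%) a lower one. These counts moved with single libraries: they were 2477 and 2058 without KO1 day 0 library 1, 1442 and 1204 without library 2, and between 290 and 517 each way without any 1 of the other 6 libraries of the comparison. Without either KO1 day 0 library the spread of that pair does not enter the p values, so the larger counts are not a cleaner result. All but 3 of the 25 sterol genes had a higher change in KO1 (22 higher, 0 lower, median 1.48). On this list WT by itself had 1 riser and 21 fallers (24.3% and 25.4% of all features). For HMGCS1 the difference was 2.17 (SE 0.16, adjusted p 2.32e-06), as WT went from 733 and 781 CPM to 504 and 560 CPM. For INSIG1 it was 2.57 (SE 0.23, adjusted p 6.7e-06), with WT at 108.5 and 115 CPM and then at 31.6 and 36.2 CPM. The WT libraries thus fell where those of KO1 rose. The difference was 1.25 for SQLE, and all 11 called fatty acid genes also had the higher change in KO1, led by ACSS2 (2.67). ABCA1 had the lower change (−2.82, SE 0.33, adjusted p 0.000101). The sterol count was 23 higher without either day 0 library of KO1.

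More endoderm genes had a lower than a higher change against WT. Of 43 definitive endoderm genes 17 had a lower and 1, ANXA3 (0.83), a higher change in KO1, with a median difference of −0.77 against 0.005 over all features. CCKBR, a gastrin receptor, was at 11.3 and 6.81 CPM and then at 19.0 and 20.1 CPM in KO1, while WT went from 11.4 and 7.06 CPM to 156.5 and 132 CPM, a difference of −2.86 (SE 0.29, adjusted p 2.74e-05). TMEM150C (−3.05), VWF (−2.77), the von Willebrand factor, S100A16 (−1.76) and CYP26A1 (−1.30), which degrades retinoic acid, were also lower. For GSC the difference was −2.70 (SE 0.76, adjusted p 0.036), but −1.12 (adjusted p 0.423) without KO1 day 0 library 2. The GSC call was likewise lost without KO1 day 4 library 1 (adjusted p 0.0835) or 2 (0.0671), WT day 0 library 1 (0.153) or 2 (0.121), or WT day 4 library 1 (0.0834), and with DESeq2 (0.0544) or limma voom (0.136). HHEX (−2.14, adjusted p 0.0159) was at −1.13 (adjusted p 0.112) and CXCR4 (−1.27, adjusted p 0.0363) at −1.07 (adjusted p 0.131) without library 2. Both also lost the call without KO1 day 4 library 1 (0.0538 and 0.0956), without WT day 0 library 1 (0.0755 and 0.0976) or 2 (0.0971 and 0.152) and without WT day 4 library 1 (0.0503 and 0.0897), and CXCR4 without KO1 day 4 library 2 (0.0576). The endoderm count was 21 lower (median −0.92) without library 1 and 13 (median −0.74) without library 2, and it was 10 or 11 without KO1 day 4 library 1, WT day 0 library 1 or 2, or WT day 4 library 1. With limma voom HHEX (adjusted p 0.0506) and CXCR4 (0.267) were not called either. In the main fit SOX17 (−1.21, adjusted p 0.161), GATA6 (−1.74, adjusted p 0.403), EOMES (−0.03) and CER1 (0.33) did not pass.

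**Figure D5:**
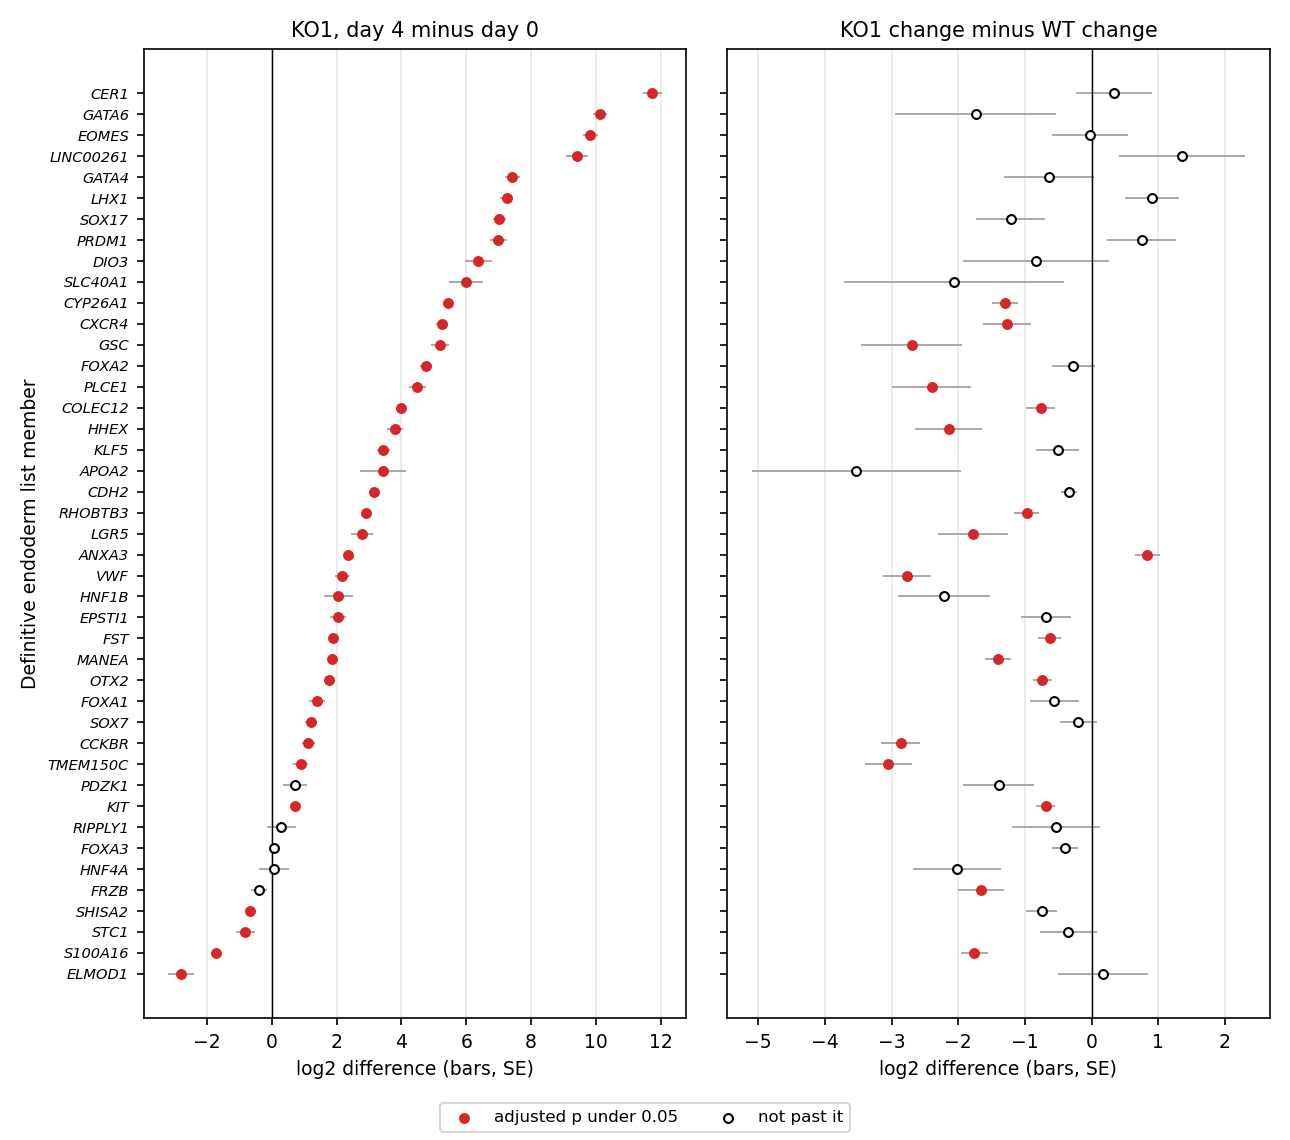
The 43 measured definitive endoderm genes, with the change from day 0 to day 4 in KO1 (left, log2) and the difference of that change from WT (right, log2), bars of 1 SE and filled points where the adjusted p was under 0.05. In the left panel 34 filled points lie to the right of 0, and in the right panel 17 filled points lie to the left of it.

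Feedback genes of the Nodal pathway differed from WT in opposite directions. NODAL had a higher change in KO1 (1.06, SE 0.24, adjusted p 0.012), and LEFTY1 (−1.87, SE 0.46, adjusted p 0.0201) and LEFTY2 (−2.46, SE 0.41, adjusted p 0.00175) lower ones. The sizes of both LEFTY differences moved with the KO1 day 0 libraries. Without library 2 LEFTY1 was at −0.63 and LEFTY2 at −1.55, and without library 1 they were at −2.45 and −2.94. Leaving out library 2 ended the call of LEFTY1 but not that of LEFTY2. The LEFTY1 call was also lost without KO1 day 4 library 1 (0.0674), WT day 0 library 1 (0.0809) or 2 (0.105), or WT day 4 library 2 (0.0603), and the NODAL call without WT day 0 library 1 (0.69, adjusted p 0.104). With limma voom neither LEFTY1 (adjusted p 0.127) nor NODAL (0.128) was called, and DESeq2 did not call LEFTY1 (0.0917). As paralogs the LEFTY genes may share reads. SFRP1 fell further in KO1 than in WT, a difference of −1.75 (SE 0.12, adjusted p 1.29e-06). SOX2 fell further too (−0.87, adjusted p 0.0143), a call lost without KO1 day 4 library 1 (0.0889), WT day 0 library 1 (0.0689) or WT day 4 library 2 (0.0686).

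The largest differences from WT outside these groups were in genes of several kinds. Higher changes in KO1 were found for GLIPR1 (3.25), SIX2 (2.90), a homeobox gene, SMPD3 (2.75), a sphingomyelinase, and APLNR (2.67), whose call was lost without WT day 0 library 1 (adjusted p 0.071). GLIPR1 was at 0.879 and 0.445 CPM and then at 27.7 and 29.9 CPM in KO1, against 5.95 and 7.67 CPM in WT at day 4. Lower changes were found for BST2, an antiviral membrane protein, and for the metal-binding metallothioneins MT1H (−3.18), MT1E (−2.98) and MT1G (−2.85). BST2 was at 21.5 and 30.03 CPM and then at 1.55 and 1.86 CPM in KO1 (−3.14 against WT, SE 0.28, adjusted p 6.7e-06). The metallothionein genes are close paralogs, and their reads may be shared.

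The counts of stress genes that differed from WT moved with single libraries. The integrated stress response had 9 genes with a higher and 0 with a lower change in KO1, but 14 and 4 without day 0 library 1, 15 and 0 without library 2 and 2 to 5 higher without KO1 day 4 library 1 or any 1 WT library. Heat shock genes counted 2 higher and 0 lower, 10 and 0 without library 1, 3 and 1 without library 2, and 7 and 1 with no filter on low counts. Cell cycle genes counted 7 higher and 0 lower, 15 without library 1, and 3 or 4 without KO1 day 4 library 1, WT day 0 library 2 or WT day 4 library 1. Replication histones counted 6 higher and 0 lower (median 1.27).

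Against KO2, a comparison that uses the same KO1 libraries, 1095 features (6.52%) had a higher and 659 (3.92%) a lower change in KO1. These counts were 2034 and 1703 without KO1 day 0 library 1, 1794 and 1467 without library 2, 630 and 267 without KO1 day 4 library 1, 679 and 328 without KO2 day 0 library 1, 660 and 334 without library 2, and 656 and 313 without KO2 day 4 library 2. The lower count alone was 410 without KO1 day 4 library 2 and 378 without KO2 day 4 library 1. Here the endoderm genes had the higher change in KO1, with 23 of 43 higher and 1, FST, lower (median 1.37), and 14 higher without KO2 day 0 library 1. CER1 differed by 3.71 (adjusted p 0.000257; 2.11 without KO2 day 0 library 1), LHX1 by 3.95 and CXCR4 by 3.52. Stem cell genes had the lower change, 14 of 32 lower and 2 higher, with SOX2 at −1.40 and POU5F1 at −0.53, and that count was 8 without KO1 day 4 library 1 and 9 without KO2 day 4 library 2. Sterol genes again had the higher change in KO1, 22 higher and 1 lower of 25, with INSIG1 at 2.66 and HMGCS1 at 1.69, and KO2 by itself had 2 risers and 16 fallers on this list (25% and 25.7% of all features). The sterol count was 22 to 24 under all alternatives run.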

How the data were processed

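The authors deposited 1 table of raw counts per gene for each of 12 RNA-seq libraries, without normalization. The submitters' processing notes name Bowtie2 2.1.0, HTSeq 0.6.1 and the build hg19. No source used here gives the strand setting or the annotation. The closing lines that name no gene were set aside (29.6% to 30.02% no feature and 19.34% to 22.19% low quality in KO1). The 8 ChIP-seq samples are not analysed here.

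Features passing edgeR's filterByExpr (16792 of 54435) were fitted in all 12 libraries with TMM scaling and edgeR 4.0.16 quasi-likelihood tests, 6 groups with 6 residual degrees of freedom, in R 4.3.3. Alternatives used DESeq2 1.42.0, limma 3.58.1 voom, other scalings, no filter, a replicate block and each library left out. On simulated data, 86% of 2-fold and 97% of 4-fold changes were recovered for day 4 against day 0 of KO1, with 5.67% of calls false. For the difference from WT these were 69%, 92% and 7.47%, and for that from KO2 66%, 93% and 6.47%. The simulation gave each gene the same spread in all libraries and planted 100 changes at each fold, in KO1 day 4 alone. In the data 58.4% of features changed. The log2 ratios of the KO1 day 0 pair had an SD of 0.31, against 0.13 to 0.171 in the other pairs. The rates therefore do not describe tests under that spread.

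Groups came from the labels. The members and lists were chosen with earlier results of these data known. Named genes were 25 lineage genes, the 12 largest called changes each way (at least 5 CPM and 1 on the log2 scale, no overlap), the 2 largest called members of each list each way, the 8 largest differences each way from WT and from KO2, and 10 genes each way for the day 0 pair (at least 10 CPM). Further members are named where a list is described. Some genes that these rules choose are not reported here. Intervals and floors cover counting error only.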

Additional observations from a re-analysis of the deposited data

Results flagged for a closer look

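The changes over days below differed between the lines in the test of that difference. Against WT the log2 difference was 2.17 for HMGCS1, 2.57 for INSIG1, 1.25 for SQLE and 2.67 for ACSS2, all lipid genes. Among lineage genes it was −2.7 for GSC, 1.06 for NODAL, −1.87 for LEFTY1, −2.46 for LEFTY2, −2.14 for HHEX, −1.27 for CXCR4 and −0.87 for SOX2. The other higher changes were 3.25 for GLIPR1, 2.9 for SIX2, 2.78 for SEZ6, 2.75 for SMPD3, 2.67 for APLNR and 2.59 for HS3ST2. The other lower ones were −3.18 for MT1H, −3.14 for BST2, −3.06 for MT1P2, −3.05 for TMEM150C, −2.98 for MT1E, −2.86 for CCKBR, −2.85 for MT1G and −2.82 for ABCA1. Adjusted p values of edgeR's test ran from 2.32e-06 to 0.0363. For the lineage genes and APLNR the report gives the losses without single libraries. The call for SEZ6 was lost without KO1 day 4 library 1 (2.62) or WT day 4 library 1 (2.48) or 2 (3.22). For HS3ST2 it was lost without WT day 0 library 1 (2.485) or 2 (2.71) or WT day 4 library 1 (2.45), and for MT1P2 without KO1 day 4 library 1 (−2.73). Calls also depended on the test. Besides GSC, limma voom did not call NODAL (adjusted p 0.128), LEFTY1 (0.127), HHEX (0.0506), CXCR4 (0.267) or APLNR (0.067). DESeq2 did not call LEFTY1 (0.0917). With only the 8 WT and KO1 libraries LEFTY1 (0.0527) and GSC (0.077) were not called. HS3ST2 was at 3.71 without KO1 day 0 library 1 and at 1.90 without library 2.

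Against KO2, which shares the KO1 libraries with the comparison above, the difference was 3.71 for CER1, 2.46 for EOMES, 2.31 for SOX17, 2.5 for FOXA2, 3.33 for GATA6, 3.52 for CXCR4, 3.95 for LHX1 and 0.69 for CDH2. It was −1.63 for LEFTY2, −0.53 for POU5F1, −0.58 for NANOG, −1.4 for SOX2 and −0.48 for CDH1. The lipid genes differed by 1.69 for HMGCS1, 2.66 for INSIG1 and 1.13 for SQLE. The other higher changes were 7.92 for CD48, 6.07 for SPATA16, 5.56 for LINC00261, 5.4 for APLNR, 4.07 for CD177, 4.04 for LHX5 and 3.93 for FGF17. The other lower ones were −6.85 for CSH2, −2.72 for TTYH1, −2.57 for MT1G, −2.57 for GPR160, −2.48 for CR2, −2.11 for CPNE7, −2.04 for SNAI3 and −2.02 for KCNN2. Adjusted p values ran from 2.54e-06 to 0.0398. Genes with few counts in one line, such as CD48 and CSH2, have imprecise sizes. Several calls rested on the test used or on single libraries. With limma voom EOMES (adjusted p 0.157), SOX17 (0.126), GATA6 (0.13), FGF17 (0.133) and LEFTY2 (0.123) were not called. LEFTY2 was not called with DESeq2 (0.0895). With only the 8 KO1 and KO2 libraries GATA6 (0.0518) and LEFTY2 (0.0765) were not called. Without KO2 day 0 library 1 the test was not passed by SOX17 (0.69), GATA6 (2.12), FGF17 (2.06), EOMES (2.30, adjusted p 0.113), LINC00261 (4.67, adjusted p 0.23), CSH2 (adjusted p 0.0709), LEFTY2 (0.174), NANOG (0.0878) and CDH1 (0.0583). Without KO2 day 0 library 2 it was not passed by CD48 (4.37), EOMES (0.0501), LEFTY2 (0.14) and CSH2 (0.0683). Without KO1 day 0 library 2 it was not passed by LEFTY2 (−0.72, adjusted p 0.304), GATA6 (3.18, adjusted p 0.0609) and CSH2 (−6.17, adjusted p 0.0634), and GPR160 was at −1.65. Without KO1 day 4 library 1 the adjusted p was 0.109 for LEFTY2, 0.0716 for GATA6, 0.0706 for NANOG, 0.07 for CDH1 and 0.0582 for CD48, and without KO1 day 4 library 2 it was 0.0588 for GATA6. Without KO2 day 4 library 2 it was 0.078 for LEFTY2, 0.0587 for NANOG, 0.0564 for CDH1 and 0.0598 for CD48, and without KO2 day 4 library 1 it was 0.0779 for LEFTY2.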

How the results depend on the processing

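With each library left out in turn, the features called in KO1 between the days ranged from 3976 to 5452 higher and from 3970 to 5275 lower, those with a higher or lower change than WT from 323 to 2477 and from 290 to 2058, and those against KO2 from 630 to 2034 and from 267 to 1703. With only the 8 WT and KO1 libraries, 440 were higher and 412 lower than in WT. With only the 4 KO1 libraries, 3846 features were higher and 3996 lower at day 4. Among the named genes, POU5F1, STC1, SREBF1, NR4A1, NDUFB3 and RPS3 were not called in that fit. STC1 turned to 0.18 without KO1 day 0 replicate 2 and was at −1.39 without replicate 1. Between the KO1 day 0 libraries 2.54% of features differed past 2-fold, 3.64% with a prior count of 0.5, 3.75% after thinning and 0.584% among features of at least 5 CPM. The cause of these shifts was not tested, except that fewer libraries or features entered. A group left with 1 library no longer adds to the estimate of the spread. Over the named genes, 1500 alternative values for day 4 against day 0 kept their direction and call, 33 lost the call and 1 reversed. Against WT 593 stayed called or stayed not called, 45 lost the call and 2 gained one, and against KO2 598, 35 and 6. In these comparisons the direction was not checked where neither fit made a call. MIXL1 against WT, for example, was at −0.26, and at 0.05 without KO1 day 0 library 2.

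The labels do not say whether equal replicate numbers pair the libraries. The deviations of same-numbered libraries correlated at −0.134 in KO1, 0.173 in WT and 0.177 in KO2. Such correlations across genes cannot decide whether the libraries were paired. With the replicate block 4901 features were higher and 4886 lower in KO1, and the block ended the calls of STC1 (−0.64, adjusted p 0.0627), SREBF1 (−0.23, adjusted p 0.0701) and, against WT, GSC (−2.65, adjusted p 0.0552). With the numbers crossed in KO1, an alternative chosen after seeing the data, the counts were 5114 higher and 5058 lower.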
